A study of Mus musculus with 18 samples.

Results

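Of 422 mouse genes named as zinc finger genes, 83 carried at least 1 peak on their own strand in RNase-protected or total liver RNA, and the places of these peaks are described here by RNA fraction and genotype. The genes were taken from the GENCODE M21 annotation (GRCm38) by symbol (Zfp, Zkscan or Zscan followed by a number, protein-coding). *Zkscan3* and *Zfp874b* were not part of the selection. A gene was a member if a peak of any of the 18 deposited lists overlapped it on its strand, so the members were chosen by the peaks themselves, and the counts below describe them without a test. The members made up 19.7% of the zinc finger genes, whereas 33.1% of all 21951 protein-coding genes carried a peak.

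The study asked which liver RNAs MDA5, a sensor of double-stranded RNA, protects from RNase when editing is lost. Livers came from mice 8 to 9 days old. Editing-deficient mice (*Adar*-/-; *Mavs*-/-) lacked ADAR1, which turns adenosine into inosine in double-stranded RNA, and the *Mavs*-/- mice, whose library titles call them wild-type, served as controls; both genotypes lacked MAVS, the adaptor that passes on the MDA5 signal. From each genotype 3 replicates gave 3 libraries each: RNA digested with RNase after incubation with a recombinant MDA5 without its CARD domains (MDA5-protected), RNA digested without that protein (RNase-only) and undigested RNA (input). Both deletions are present in the whole animal, liver was used as whole tissue, and peaks in bulk RNA cannot tell fewer cells of a type from less RNA per cell.

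C2H2 zinc finger proteins bind DNA through repeated finger modules, each held together by a zinc ion between cysteines and histidines. Many carry a KRAB domain, which recruits TRIM28 and through it SETDB1 and other silencing proteins to transposable elements. Their genes arose by repeated duplication, lie in clusters and contain many transposable elements. A smaller group named in the same way, *Zfp36*, *Zfp36l1* and *Zfp36l2*, has CCCH fingers instead, binds AU-rich RNA and shortens the life of messages.

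Liver identity was visible in the input: all 6 liver markers examined (*Alb*, *Apoa1*, *Apob*, *Ttr*, *Serpina1c*, *Trf*) carried peaks in all 6 input libraries. Together their peaks covered 29316 to 49876 nt per editing-deficient and 37506 to 47572 nt per *Mavs*-/- input library. Of 9 markers of other cells in liver, 6 had input peaks, which summed to 3783 to 4351 nt and 3083 to 5268 nt, respectively, with *Ptprc*, *Cd68* and *Krt19* at 0. *Krt19* nevertheless had peaks in 11 digested libraries and *Ptprc* in 4, while *Cd68* had none in any library. *Mavs* carried no peak in any library, and *Adar* carried input peaks only in editing-deficient replicates 2 and 3 (452 and 285 nt). An RNase-only peak of 257 nt was also present in editing-deficient replicate 2. Which part of *Adar* is deleted is not given in the sources used here, so these peaks do not check the genotype labels. The libraries differed in size, from 1180 to 2868 peaks in the MDA5-protected, 3150 to 6094 in the RNase-only and 4326 to 8948 in the input lists. Read counts are not part of these lists, and depth is therefore unknown.

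The sequences that carry the pairing result are those of *Zfp626* and *Zfp738*. These were the members with an exonic peak inside an arm of an inverted repeat of their own transcript, that is, a stretch whose reverse complement recurs in the same transcript and can fold back on it. *Zfp626* (chromosome 7, plus strand) encodes a KRAB zinc finger protein. Its 3′ UTR held arms at chr7:27821525-27821695 and chr7:27821872-27822043, 176 nt apart, which aligned over 175 nt (gaps included) with 83.4% identity. The best-pairing 30 bases of each arm, at chr7:27821584-27821613 and chr7:27821955-27821984, are given 5′ to 3′ on the transcript strand. Capitals mark the 28 bases that form a Watson-Crick pair (A with T, G with C) with the other arm. G:U pairs, which RNA can also form, are left in lower case.
Zfp626 first arm: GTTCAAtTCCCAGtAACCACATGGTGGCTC
Zfp626 second arm: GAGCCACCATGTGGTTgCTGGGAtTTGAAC

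Both arms of *Zfp626* carried an MDA5-protected peak of their own, of 123 nt at chr7:27821555-27821677 and 121 nt at chr7:27821946-27822066. Of the first peak 100% and of the second 81% lay within the arms. Both peaks came from *Mavs*-/- replicate 1 alone, and no RNase-only or input library had a peak on the gene. In *Zfp738* (chromosome 13, minus strand), another KRAB zinc finger gene, a 3′ UTR peak of 175 nt lay wholly within an arm at chr13:67658688-67658977. Its partner at chr13:67666161-67666460 was 7183 nt away, and the alignment ran over 307 nt with 78.5% identity. This peak came from 1 RNase-only library of editing-deficient mice. The best-pairing 30 bases, at chr13:67658906-67658935 and chr13:67666205-67666234 on the minus strand, again had 28 Watson-Crick pairs in capitals.
Zfp738 arm under the peak: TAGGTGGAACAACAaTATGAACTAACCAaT
Zfp738 partner arm: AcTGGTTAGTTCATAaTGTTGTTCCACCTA

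Across the zinc finger genes, 2 of 15 exonic MDA5-protected regions (13.3%), 1 of 32 RNase-only regions (3.12%) and 0 of 68 input regions touched such an arm. In all other protein-coding genes the shares were 5.41% of 591, 0.459% of 4572 and 0.176% of 11358 regions. Each of the 2 member shares above 0 rests on 1 gene. Intronic peaks could not be searched, as only transcript sequences were used.

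The members fell into fractions as follows. Here MDA5-protected means any peak in the list of such a library. The authors called regions protected only after subtracting RNase-only peaks and requiring a peak in another replicate. Neither step was applied here. MDA5-protected peaks were present on 27 genes (6.4% of the 422, against 6.97% of all protein-coding genes), RNase-only peaks on 46 (10.9% against 20.3%) and input peaks on 45 (10.7% against 20.6%). The RNase-only and input shares of the zinc finger genes thus lay below the background, whereas the MDA5-protected share was close to it. Of the 27 genes with an MDA5-protected peak, 22 also had an RNase-only peak (81.5%, background 74.6%) and 7 an input peak (25.9%, background 49.1%). *Zfp143*, *Zfp280b*, *Zfp444* and *Zfp626* had MDA5-protected peaks alone (4.82% of the members, background 2.78%), 18 members RNase-only peaks alone (21.7%, background 27.1%) and 32 input peaks alone (38.6%, background 33.4%). *Zfp148*, *Zfp422*, *Zfp609*, *Zfp652*, *Zfp804b* and *Zfp91* had peaks in all 3 fractions (7.23% of the members, background 7.75%).

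Of the 83 members, 30 rested on a single peak in a single library. The smallest such overlap was 44 nt in *Zfp541*, followed by 59 nt in *Zfp644* and 95 nt in *Zfp821*. Just outside, *Zfp146*, *Zfp113* and *Zfp513* had their nearest same-strand peak 536, 555 and 563 bp away, and 15 further zinc finger genes carried peaks on the opposite strand only.

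The genes with peaks differed from the others of the family in make-up. Translated from their longest coding model, the 83 members had a median of 6 C2H2 fingers (range 0 to 30), and the 339 zinc finger genes without a peak had 11 (range 0 to 36). A residue pattern of the KRAB domain was found in 21.7% of the members and in 51.3% of the genes without a peak. This share was 29.6% for genes with an MDA5-protected peak, 30.4% for RNase-only and 6.67% (3 of 45 genes) for input. The pattern is strict, and a gene without it is not shown to lack the domain. It was found in *Zfp729a* but not in *Zfp729b*, and not in *Zkscan1* and *Zkscan17*, which had input peaks. The shares may therefore be too low. Of the members 15.7%, and of the genes without a peak 30.1%, had 5 or more other zinc finger genes within 200 kb. These differences within the family were not tested. The median gene length was 23 kb for members, 33 kb for those with an MDA5-protected peak and 16.1 kb for zinc finger genes without a peak.

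Where in the gene the peaks lay differed between the fractions. A peak that touched several features in any model of the gene was placed by priority, a 5′ UTR before a 3′ UTR, then other exons and last introns. In the MDA5-protected libraries 83 of 111 peaks on zinc finger genes were intronic (74.8%, 95% Clopper-Pearson interval 65.6 to 82.5), against 80.8% of 7142 peaks on other genes. A further 10.8% were in 3′ UTRs, 8.11% in other exons and 6.31% in 5′ UTRs. RNase-only peaks were intronic in 102 of 176 cases (58%, 50.3 to 65.3) and 3′ UTR in 51 (29%, 22.4 to 36.3), whereas both classes made up 42.4% of the peaks on other genes. In the input, 49 of 137 peaks were exonic (35.8%), 44 in 3′ UTRs (32.1%), 31 in 5′ UTRs (22.6%, against 12.5% on other genes) and 13 intronic (9.49%). The intervals cover counting error only, and peaks of different libraries often mark the same place.

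**Figure D1:**
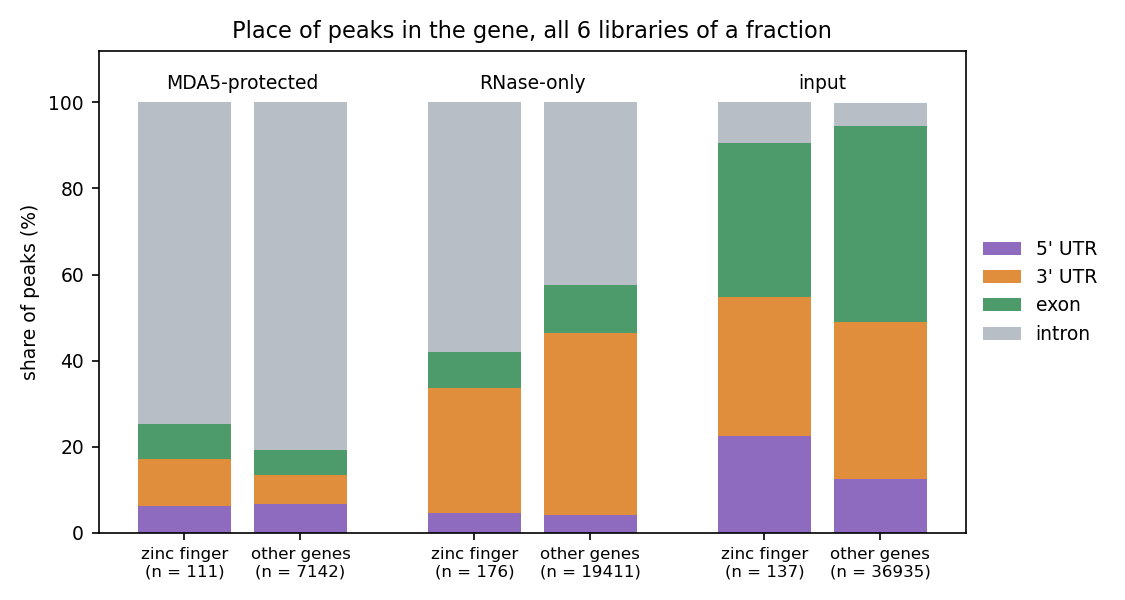
Shares of peaks (%) in 5′ UTR, 3′ UTR, other exons and introns, for zinc finger genes and for all other protein-coding genes, with all 6 libraries of a fraction pooled and the number of peaks under each bar. Introns hold 74.8% of the MDA5-protected, 58% of the RNase-only and 9.49% of the input peaks on zinc finger genes.

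Counted by gene, 19 of the 27 genes with an MDA5-protected peak had one in an intron (70.4%, background 71.9%), 4 in a 3′ UTR (14.8%, background 13.9%), 5 in a 5′ UTR (18.5%, background 13.1%) and 3 in another exon (11.1%, background 9.94%). These shares lay near the background. Of the 46 genes with an RNase-only peak, 26 had one in an intron (56.5%, background 38.1%), 13 in a 3′ UTR (28.3%, background 59.1%), 7 in a 5′ UTR (15.2%, background 9.23%) and 6 in another exon (13%, background 13.3%). Of the 45 genes with an input peak, 22 had one in a 3′ UTR (48.9%, background 70.4%), 26 in another exon (57.8%, background 55.4%), 12 in a 5′ UTR (26.7%, background 33.8%) and 5 in an intron (11.1%, background 9.64%). Zinc finger genes thus had 3′ UTR peaks at a lower share than other genes in the RNase-only and input fractions, without a test of that difference.

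By genotype, the intronic share of the MDA5-protected peaks was 72.9% in editing-deficient (51 of 70 peaks) and 78% in *Mavs*-/- libraries (32 of 41), with overlapping intervals of 60.9 to 82.8 and 62.4 to 89.4; on other genes it was 82.8% and 76.9%. The 3′ UTR share was 12.9% (9 peaks) and 7.32% (3 peaks), against 7.1% and 6.05% on other genes. In the RNase-only libraries intronic peaks made up 60.4% and 54.7%, against 43.7% and 40.5% on other genes. Editing-deficient RNase-only replicate 1 stood apart, with 5 intronic peaks on zinc finger genes where replicates 2 and 3 had 24 and 32, and with 22.7% intronic peaks on other genes against 49.5% and 57.6%. In the input, exonic peaks made up 38.9% of 108 editing-deficient and 24.1% of 29 *Mavs*-/- peaks, with overlapping intervals of 29.7 to 48.7 and 10.3 to 43.5, against 45.3% and 46.1% on other genes. All these intervals pool the peaks of 3 libraries and do not measure the spread between replicates.

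Merged over libraries and fractions, the peaks formed 161 separate regions. The 45 MDA5-protected regions had a median length of 247 nt. Of these, 20 were found in both genotypes, 18 in editing-deficient libraries only and 7 in *Mavs*-/- libraries only; 18 were seen in 1 MDA5-protected library. A peak of the RNase-only fraction overlapped 29 of them, and an input peak 1. By gene, MDA5-protected peaks in editing-deficient libraries only were found on 29.6% (background 49.4%). Those in *Mavs*-/- libraries only were found on 11.1% (background 8.89%). The 76 RNase-only regions (median 246 nt) included 34 found in both genotypes. The 72 input regions were longer (median 466 nt), and 2 of them overlapped an RNase-only region. Peaks of the digested libraries were called with the input as control, so their overlap with input peaks depends on the calling itself. None of these region counts was made for other genes.

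The number of MDA5-protected peaks on zinc finger genes per library was 13, 26 and 31 in editing-deficient and 22, 10 and 9 in *Mavs*-/- replicates 1 to 3. The groups overlapped, with means of 23.3 ± 9.29 and 13.7 ± 7.23 (SD, n = 3). This ratio of 1.71 lay below the 1.96 of the other protein-coding genes, and per 1000 peaks on genes the values were 14.2 ± 2.2 and 16.1 ± 2.42. When as many peaks were taken from each library as the smallest list holds, the difference of 9.67 peaks became 1.

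Genes on which every library of one genotype and none of the other had a peak were looked for next. In the MDA5-protected fraction *Zfp799* and *Zfp931* met this rule for editing-deficient libraries, 7.41% of the 27 genes against a background of 5.76% of genes with such a peak. No zinc finger gene met it for *Mavs*-/- (background 0.458%). Peaks in editing-deficient libraries only were found on 8 genes (29.6%, background 49.4%) and in *Mavs*-/- libraries only on *Zfp385b*, *Zfp626* and *Zfp972* (11.1%, background 8.89%).

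*Zfp931* (chromosome 2, minus strand) encodes a KRAB zinc finger protein. Its MDA5-protected peaks covered 253, 700 and 1492 nt in editing-deficient replicates 1 to 3 and 0 nt in the *Mavs*-/- replicates, a difference of 815 nt (exact two-sided permutation p = 0.1, the smallest that 3 against 3 allow). Every gene that meets the rule has this p, so it lends no support of its own. Without editing-deficient replicate 3 the difference was 476 nt, and with a minimum area of 1000 it was 432 nt (exact permutation p = 1). They lay in the region chr2:178067134-178068557 in all 3 editing-deficient libraries, with 2 further 3′ UTR regions at chr2:178068807-178069002 and chr2:178069047-178069634 in replicate 3. The first region was placed in the 3′ UTR by priority, yet its middle base lay in another exon, and 441 of its 706 bases in the transcript that holds most of it code for fingers. This region runs past the annotated end of the gene (chr2:178067695-178078476, minus strand), beyond which peaks were not counted. There *Mavs*-/- replicate 1 had an MDA5-protected peak of its own, 76 bp from the gene and inside the region. With the gene extended by 1000 bp at both ends, an alternative added after seeing the data, the values became 552, 700 and 2053 nt in editing-deficient and 436, 0 and 0 nt in *Mavs*-/- libraries. The absence of peaks from all *Mavs*-/- libraries therefore holds only up to the annotated end of *Zfp931*, while the difference of 956 nt kept its direction (exact permutation p = 0.1). This p, too, rests largely on the values by which the gene was picked. In the RNase-only fraction the gene had peaks in both genotypes, covering 0, 688 and 951 nt in editing-deficient and 568, 152 and 325 nt in *Mavs*-/- libraries. The region at chr2:178069047-178069634 also had peaks on the opposite strand in 9 libraries, among them 3 editing-deficient and 1 *Mavs*-/- MDA5-protected library, where no gene is annotated. With strand ignored, *Zfp931* was therefore covered in both genotypes. The sequence of the region at chr2:178069047-178069634 recurs with at least 95% identity over at least 90% of the region in transcripts of 9 other genes. Reads could thus be shared among these copies. For the exonic parts of the other 2 regions no such copy was found.

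*Zfp799* (chromosome 17, minus strand), a zinc finger gene with 16 fingers in its longest model, had intronic MDA5-protected peaks of 136, 326 and 395 nt in the editing-deficient libraries and none in the *Mavs*-/- libraries. The difference of 286 nt again had an exact permutation p of 0.1, which the rule fixes in advance. The peaks formed a region at chr17:32825432-32825651, found in all 3 libraries, and a second at chr17:32823668-32823914, found in replicates 2 and 3. RNase-only peaks covered the same regions in both genotypes, with 0, 341 and 439 nt in editing-deficient and 419, 162 and 165 nt in *Mavs*-/- libraries. The extension by 1000 bp left the values of *Zfp799* as they were. Its intronic regions were not searched for near copies. Neither gene met the rule when equal numbers of peaks were taken, where *Zfp143* alone did, or with a minimum area of 1000, where none did.

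**Figure D2:**
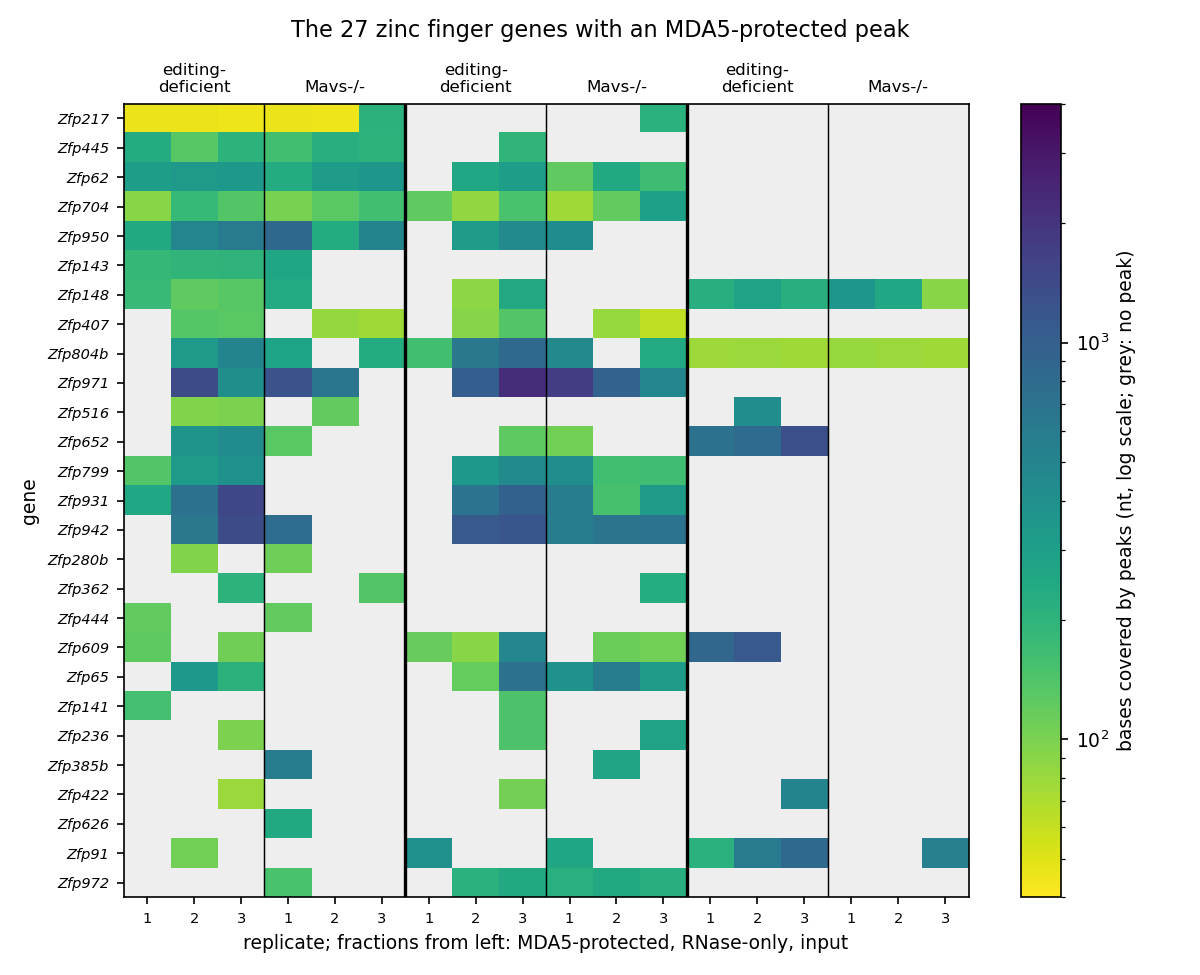
Bases covered by peaks (nt, log colour scale, grey for no peak) on the 27 zinc finger genes with an MDA5-protected peak, in 18 libraries ordered by fraction, genotype and replicate; genes are ordered by the number of MDA5-protected libraries. *Zfp799* and *Zfp931* are, within their annotated ends, covered in all 3 editing-deficient and no *Mavs*-/- MDA5-protected library, yet in both genotypes of the RNase-only fraction.

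*Zfp217*, *Zfp445*, *Zfp62*, *Zfp704* and *Zfp950* had MDA5-protected peaks in all 6 libraries, 18.5% of the 27 genes against a background of 9.03%. *Zfp445*, a KRAB gene known for its role in keeping genomic imprints, was covered over 235, 132 and 205 nt in editing-deficient and 162, 219 and 203 nt in *Mavs*-/- replicates, at 1 intronic region (chr9:122860276-122860512). Only 1 of 6 RNase-only libraries had a peak there. *Zfp62*, with 25 fingers in its longest model, had 2 neighbouring intronic regions at chr11:49210918-49211151 and chr11:49211829-49212076. Together they covered 302, 340 and 343 nt in editing-deficient and 234, 320 and 359 nt in *Mavs*-/- libraries. In all 5 genes the values of the 2 genotypes overlapped.

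*Zfp950* was covered over 242, 485 and 585 nt and over 864, 236 and 504 nt, mostly at the intronic region chr19:61137397-61138038. In *Zfp704* the exon at chr3:9609445-9609689 was covered over 90, 184 and 136 nt in editing-deficient and 101, 131 and 162 nt in *Mavs*-/- libraries. Among regions placed in exons outside UTRs, it was the only one present in all 6 MDA5-protected libraries, and 5 RNase-only libraries covered it as well. *Zfp217*, which encodes a transcriptional regulator, was covered over 46, 46 and 45 nt in editing-deficient and 46, 45 and 208 nt in *Mavs*-/- libraries, within the region chr2:170130797-170131080. The 5 short peaks were intronic, and the longer peak reached the 5′ UTR.

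Other members had MDA5-protected peaks in at least 2 libraries of 1 genotype. *Zfp143*, an activator of RNA polymerase II and III genes, was covered over 187, 195 and 199 nt in editing-deficient libraries and over 263, 0 and 0 nt in *Mavs*-/- libraries. *Zfp148*, a Krüppel-type factor that binds GC-rich promoters, had an intronic region at chr16:33396938-33397117 in 3 editing-deficient and 1 *Mavs*-/- library. *Zfp407*, a large factor with 22 fingers, had 1 intronic region in 2 libraries of each genotype in both the MDA5-protected and the RNase-only fraction. There the opposite strand carried peaks in 11 libraries, more than the gene's own strand with 8. *Zfp609* had an intronic peak in 2 editing-deficient and no *Mavs*-/- MDA5-protected library, but in 3 and 2 RNase-only libraries at the same place. *Zfp652* had intronic MDA5-protected peaks of 0, 368 and 430 nt in editing-deficient and 129, 0 and 0 nt in *Mavs*-/- libraries. *Zfp804b*, the longest member with 575747 bp, was covered over 0, 334 and 504 nt and over 277, 0 and 235 nt, all in 2 intronic regions.

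3′ UTR and exon peaks outside these genes were few. *Zfp65*, a KRAB gene on chromosome 13, had a 3′ UTR region of 810 nt at chr13:67706216-67707025, covered by MDA5-protected peaks over 0, 345 and 208 nt in editing-deficient libraries and nowhere in *Mavs*-/- libraries. RNase-only peaks covered it over 0, 119 and 709 nt and over 385, 568 and 320 nt. *Zfp950* also had a 3′ UTR peak of 238 nt in *Mavs*-/- replicate 1. *Zfp971*, a KRAB gene on chromosome 2 near *Zfp931*, was covered over 0, 1364 and 401 nt in editing-deficient and 1237, 658 and 0 nt in *Mavs*-/- MDA5-protected libraries, mostly in introns. It also had an exon region of 387 nt at chr2:178032890-178033276, in 1 MDA5-protected library of each genotype, of which 53.7% codes for fingers. *Zfp91*, which encodes an E3 ubiquitin ligase, had an exon peak of 107 nt in 1 editing-deficient library. In 5′ UTRs, *Zfp236*, *Zfp362*, *Zfp422* and *Zfp516* had MDA5-protected peaks of 80 to 204 nt in 1 to 3 libraries. For *Zfp362* 1 of these peaks was placed in the intron. *Zfp942*, another KRAB gene, had MDA5-protected peaks in 4 intronic regions, over 0, 639 and 1366 nt in editing-deficient and 776, 0 and 0 nt in *Mavs*-/- libraries.

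Peaks on both strands of the same place in 1 library were found in 3 of 45 MDA5-protected, 14 of 76 RNase-only and 3 of 72 input regions. The same shares were not determined for regions of other genes, so these counts do not set the zinc finger genes apart. Opposite-strand peaks were present in most libraries, 11 each, over the intronic region of *Zfp407* and over that of *Zfp931* at chr2:178070612-178070934. On *Zfp148*, all 6 input libraries had peaks on both strands over the 5′ UTR region at chr16:33380907-33381315. Of all places with an opposite-strand peak in any library, those on *Zfp740*, *Zfp36l2* and *Zfp236* had an annotated gene on the opposite strand.

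Among exonic regions, near copies limited the gene assignment mainly on chromosome 2. Intronic peaks were not searched for copies, so their assignment remains unchecked. This holds for all peaks of *Zfp799* and *Zfp942*, which have 6 and 5 other zinc finger genes within 200 kb. Of 104 exonic regions, 7 had a near copy (at least 95% identity over at least 90% of the region) in a transcript of a gene elsewhere. For *Zfp971* there were 43, 7 and 1 genes with such copies for 3 of its regions, for *Zfp972* 23 and for *Zfp931* 9. The values of these 3 genes may thus include reads from their copies, and how the aligner placed such reads was not tested. *Zfp422* and *Zfp384*, with 1 gene each, made up the remainder.

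In the RNase-only fraction no zinc finger gene was covered in all 3 libraries of one genotype and none of the other (background 2% for editing-deficient and 0.292% for *Mavs*-/-). Peaks on members numbered 15, 37 and 49 in editing-deficient and 31, 21 and 23 in *Mavs*-/- libraries (33.7 ± 17.2 and 25 ± 5.29, SD, n = 3). The groups overlapped, and with lists of equal size the difference of 8.67 peaks became -4.33. *Zfp704* and *Zfp706* were covered in all 6 libraries (4.35% of the 46 genes, background 8.35%). Peaks in editing-deficient libraries only were found on 15 genes (32.6%, background 34%) and in *Mavs*-/- libraries only on 10 (21.7%, background 17.8%). *Zfp704* was covered over 123, 85 and 149 nt in editing-deficient and 77, 122 and 295 nt in *Mavs*-/- libraries.

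*Zfp706*, which encodes a small protein with 1 C2H2 finger, had its RNase-only peaks in the 3′ UTR. They covered 496, 287 and 541 nt in editing-deficient and 220, 913 and 117 nt in *Mavs*-/- libraries. *Zfp971* was covered over 0, 1015 and 2180 nt and over 1726, 948 and 483 nt, in introns, exons and 3′ UTR. *Zfp942* was covered over 0, 1103 and 1162 nt and over 573, 677 and 687 nt, in introns. *Zfp804b* had 162, 637 and 829 nt in editing-deficient and 455, 0 and 241 nt in *Mavs*-/- libraries. In each of these genes the genotypes overlapped, and the lowest editing-deficient value was that of replicate 1 for all but *Zfp706*. *Zfp697*, named after its values were seen, was the member whose RNase-only values did not overlap. Its intronic peaks covered 154, 140 and 160 nt in editing-deficient and 121, 92 and 0 nt in *Mavs*-/- libraries (difference 80.3 nt, exact permutation p = 0.1). That p is the smallest that 3 against 3 allow, and values that do not overlap always give it. The share of all genes with an RNase-only peak that separate in this way was not determined.

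In the undigested input, peaks on zinc finger genes numbered 25, 42 and 41 in editing-deficient and 8, 5 and 16 in *Mavs*-/- libraries. These groups did not overlap, with means of 36 ± 9.54 and 9.67 ± 5.69 (SD, n = 3) and a ratio of 3.72, whereas peaks on other genes had a ratio of 1.57. Per 1000 peaks on genes, the values were 3.95, 5.14 and 5 against 1.78, 1.29 and 2.66. Exonic peaks were 7, 16 and 19 against 0, 1 and 6, 3′ UTR peaks 7, 14 and 15 against 2, 1 and 5, and 5′ UTR peaks 7, 10 and 6 against 3, 2 and 3. Intronic peaks were 4, 2 and 1 against 3, 1 and 2, and these overlapped.

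Input peaks on zinc finger genes were weaker by median area than those on other genes. Their median area, the score of the peak caller, was 658 in editing-deficient and 628 in *Mavs*-/- libraries, and 788 for other genes in both genotypes; 89.8% and 75.9% of them were under an area of 1000, against 65.8% and 65.3% of the peaks on other genes. With the 4326 strongest peaks of each library, peaks on members numbered 13, 9 and 8 against 6, 5 and 5, so that the difference of 26.3 became 4.67. With a minimum area of 1000 they numbered 4, 3 and 4 against 3, 2 and 2, a difference of 1.33. The size of the difference thus rests on weak peaks and moves with the length of the lists. The part of sequencing depth in it was not tested.

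**Figure D3:**
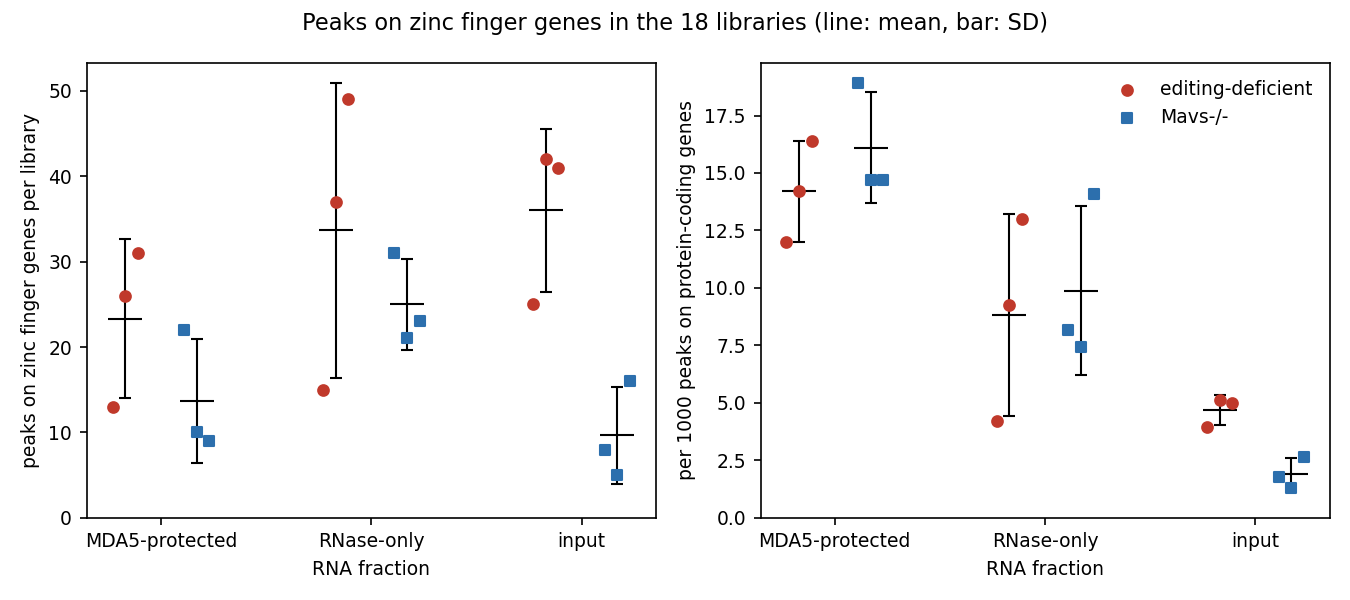
Peaks on zinc finger genes per library (left) and the same per 1000 peaks on protein-coding genes (right), by RNA fraction; each point is 1 of 3 replicates of a genotype, lines are means and bars SD. In the input the editing-deficient libraries (25 to 42 peaks) lie above all *Mavs*-/- libraries (5 to 16), while in the other fractions the genotypes overlap.

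Of the 45 genes with an input peak, 30 had one in editing-deficient libraries only (66.7%, background 34.8%) and *Zfp949* alone had one in *Mavs*-/- libraries only (2.22%, background 9.48%). By the stricter rule, *Zfp652* was the only gene with a peak in all 3 editing-deficient and no *Mavs*-/- library (2.22%, background 5.1%). *Zfp652*, a transcriptional repressor, was covered over 705, 803 and 1288 nt in editing-deficient libraries, in its 3′ UTR and in an exon. The difference of 932 nt had an exact permutation p of 0.1, which the stricter rule fixes in advance. Its peaks were weak: with a minimum area of 1000 *Zfp36* met the rule in its place, and with lists of equal size no gene did. No zinc finger gene showed the opposite pattern in the input (background 0.818%). Of 25 genes with input peaks in 2 or more libraries, 20 had them in more editing-deficient than *Mavs*-/- libraries (80%, background 48.2%), 5 in as many (20%, background 42.3%) and 0 in fewer (background 9.41%).

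*Zfp106*, an RNA-binding protein with zinc fingers, had the highest mean input coverage in editing-deficient libraries, with 3283, 3246 and 1933 nt in editing-deficient and 0, 0 and 752 nt in *Mavs*-/- libraries (difference 2570 nt, exact permutation p = 0.1). Peaks with an area of at least 1000 left a difference of 694 nt (exact permutation p = 0.2). Its peaks lay in exons and in the 3′ UTR at chr2:120508013-120509552. *Zfp36*, the CCCH protein known as tristetraprolin, was covered over 1486, 1637 and 956 nt in editing-deficient and 0, 724 and 364 nt in *Mavs*-/- libraries (difference 997 nt, exact permutation p = 0.1). Both genes were thus covered more widely in all 3 editing-deficient libraries than in any *Mavs*-/- library. The editing-deficient input lists were also longer throughout, with 6991 to 8948 peaks against 4326 to 6625. The share of all genes with input peaks that separate in this way was not determined.

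For the other CCCH genes the values overlapped. *Zfp36l1* was covered in all 6 input libraries, over 2163, 1537 and 1991 nt in editing-deficient and 1306, 1771 and 1896 nt in *Mavs*-/- libraries (exact permutation p = 0.4). *Zfp36l2* was covered over 276, 889 and 520 nt and over 0, 0 and 506 nt (exact permutation p = 0.2). *Zfp36l2* also had 3′ UTR peaks in the RNase-only fraction, over 359, 160 and 0 nt and over 389, 0 and 0 nt, whereas *Zfp36* and *Zfp36l1* had none. None of the 3 genes had an MDA5-protected peak.

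Besides *Zfp36l1*, *Zfp148* and *Zfp804b* had peaks in all 6 input libraries (together 6.67% of the 45 genes, background 23.6%). *Zfp148* was covered over 223, 283 and 218 nt and over 354, 258 and 91 nt, at chr16:33380907-33381315 over its 5′ UTR, where 174 of 409 nt are exonic in the transcript that holds most of it. The peak of *Mavs*-/- replicate 3 was placed in another exon, and the middle of the region is intronic. The input peak of *Zfp804b*, of 77 to 81 nt in all 6 libraries at chr5:7177746-7177827, lay in an intron and overlapped the annotated snRNA gene *Gm24525* on the same strand, so reads of both genes cannot be told apart there. Likewise, the intronic input peak of *Zfp949* overlapped the small RNA gene *Gm26461*. *Zfp219* was covered over 269, 1317 and 266 nt in editing-deficient and 272, 0 and 267 nt in *Mavs*-/- libraries, mainly at the 5′ UTR region chr14:52014387-52014661, with overlapping genotypes.

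**Figure D4:**
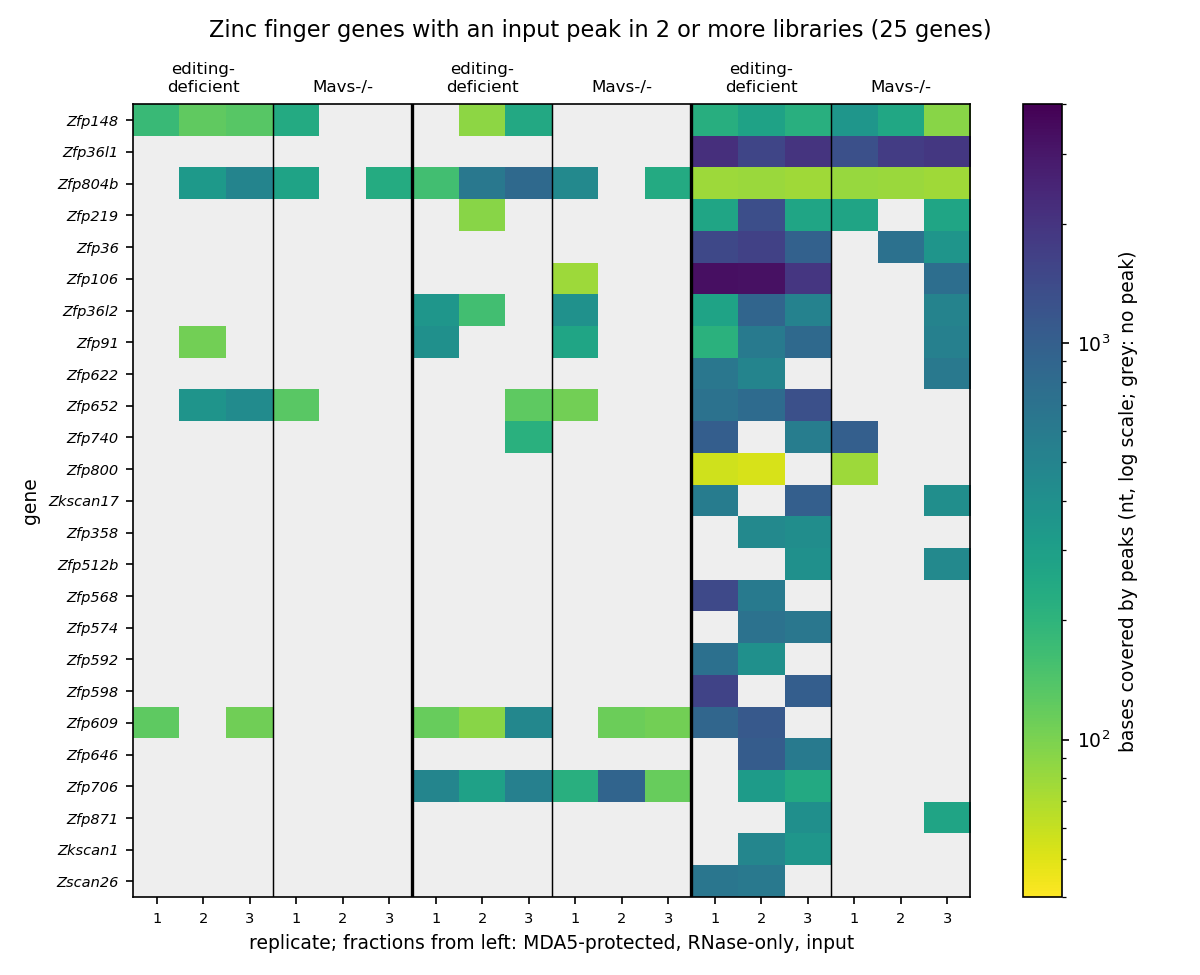
Bases covered by peaks (nt, log colour scale, grey for no peak) on the 25 zinc finger genes with an input peak in 2 or more libraries, in 18 libraries ordered by fraction, genotype and replicate. *Zfp106* and *Zfp36* are covered more widely in every editing-deficient than in any *Mavs*-/- input library, while *Zfp36l1* overlaps. How many genes outside the family separate in this way was not determined.

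The silencing proteins that KRAB zinc finger proteins recruit were examined as a list of 15 genes. Of these, 7 had input peaks (46.7%, background 20.6%), 4 RNase-only peaks (26.7%, background 20.3%) and 2, *Atf7ip* and *Morc3*, MDA5-protected peaks (13.3%, background 6.97%). *Trim28*, which binds the KRAB domain, was covered in the input over 2478, 1923 and 2041 nt in editing-deficient and 745, 1412 and 1886 nt in *Mavs*-/- libraries. All 3 editing-deficient values thus lay above the *Mavs*-/- values. *Chd4*, another gene of the list, separated likewise, over 2221, 1732 and 2563 nt against 496, 469 and 949 nt. The values of the other listed genes with input peaks overlapped. The share of all genes with input peaks that separate in this way was not determined. *Setdb1* had no peak in any library. *Morc3*, an ATPase of the silencing pathway, had an intronic MDA5-protected peak of 96, 90 and 95 nt in the *Mavs*-/- libraries and none in the editing-deficient libraries, opposite to *Zfp799* and *Zfp931*. It was among 7 of 1529 genes with that pattern (0.458%).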

How the data were processed

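Liver RNA of 2 genotypes, 3 fractions and 3 replicates gave 18 lists of peaks, grouped by the deposited labels; none was left out. The authors trimmed the reads with Trim Galore 0.6.6 and called peaks on GRCm38 with Genrich 0.6.1 strand by strand (adjusted P-value at most 0.01, area at least 500, gap at most 20 bp), with the input of the same genotype as the control of the digested libraries, which therefore share controls. The deposited score of a peak is its area under the significance curve, and the authors' other columns hold −log10 of the P-value and adjusted P-value (lowest 3.12). Scores were compared only as areas, and depth is unknown.

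The members and the lists were chosen with earlier results of these data known. An overlap of 1 nt on the gene's strand counted. Bases covered by a gene's peaks were compared between genotypes by two-sided exact permutation tests (3 against 3). Shares have 95% Clopper-Pearson intervals. Inverted repeats were alignments of a transcript with its own reverse complement (blastn, word size 11, at least 70 nt and 70% identity, transcripts up to 30000 nt), a search narrowed from whole genes to transcripts because only these sequences were used; near copies were likewise sought in GENCODE transcripts and not in the genome. Fingers were counted in translations, by the spacing of 2 cysteines and 2 histidines. The KRAB domain was called there from a single residue pattern, which can miss diverged domains. The scripts were tested on simulated peaks and planted repeats. Named were members with MDA5-protected peaks in at least 2 libraries of 1 genotype or outside introns, the 6 in most RNase-only or input libraries (ties taken by mean covered bases), those in all 3 libraries of one genotype only, the CCCH genes, and those nearest to the overlap limit; *Zfp280b*, *Zfp444*, *Zfp738*, *Zfp740*, *Zfp949*, *Zfp972*, *Zfp384*, *Zfp644*, *Zfp697* and *Zfp821* were added after their values were seen. Alternatives were 50% overlap, placement by the middle base, a minimum area of 1000, equal numbers of peaks, removal of peaks shared with another gene, strand ignored, each replicate left out and the replicate block. An extension of genes by 1000 bp was added after seeing the data. Tools were BLAST 2.17.0, matplotlib 3.10.9, scipy 1.17.1, numpy 2.4.6 and Python 3.11.15.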

Additional observations from a re-analysis of the deposited data

Results flagged for a closer look

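*Zfp931* stood out because its MDA5-protected minus RNase-only coverage pointed in opposite directions in the 2 genotypes. In editing-deficient replicates 1 to 3 the MDA5-protected library was covered over 253, 12 and 541 nt more than the RNase-only library of the same number. The 253 nt arose because RNase-only replicate 1 had no peak on the gene. That library also had fewer intronic peaks on zinc finger genes (33.3%) than replicates 2 and 3 (64.9% and 65.3%). In replicate 2 the coverages were nearly equal, at 700 and 688 nt. In the *Mavs*-/- replicates it was covered over 568, 152 and 325 nt less, since no MDA5-protected peak was present within the annotated gene. The mean difference between the genotypes was 617 nt. Whether it exceeds the spread between replicates was not tested. *Mavs*-/- replicate 1 had an MDA5-protected peak 76 bp past the end of the gene. The 3′ UTR region at chr2:178069047-178069634 has near copies in 9 other genes. The exonic part of the region covered in all 3 editing-deficient libraries (chr2:178067134-178068557) had no such copy. Opposite-strand peaks were present over the gene in both genotypes. The part of the copies and of these peaks in the value was not tested either.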

How the results depend on the processing

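With a minimum area of 1000, members with a peak numbered 9 for MDA5-protected, 13 for RNase-only and 7 for input, the intronic share of MDA5-protected peaks became 63.9% (mean of libraries 76.7% without the minimum), the input difference 1.33 peaks and the 3′ UTR share of input peaks 18.1% (29% without). With equal numbers of peaks per library, input members numbered 17, the genotype differences became 1 (MDA5-protected), -4.33 (RNase-only, reversed) and 4.67 (input), and the input 3′ UTR share 21.2%; with strand ignored the latter was 21.3%. With depth unknown, a gene without a peak is not shown to lack RNA. The remaining settings (50% overlap, middle base, peaks shared with another gene left out) moved none of the 10 values on the whole set by more than 1 SD between libraries or 1.5 times.

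Leaving out 1 library at a time gave 24 to 27 members for MDA5-protected, 39 to 45 for RNase-only and 34 to 45 for input. The genotype differences ranged from 5.83 to 14.8, 1 to 18 and 23.3 to 31.8 peaks. The intronic shares ranged from 75.2% to 78.5% and 52.2% to 58.6%, and the 3′ UTR shares from 26.7% to 34.4% (RNase-only) and 27.5% to 30.8% (input). The MDA5-protected difference became 14.8 without editing-deficient replicate 1 and 5.83 without editing-deficient replicate 3, and the RNase-only difference 18 and 1 without the same replicates.

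With a minimum area of 1000 the differences became 432 nt for *Zfp931*, 694 nt for *Zfp106* and 0 nt for *Zfp799* and *Zfp652*, and without editing-deficient replicate 3 that of *Zfp931* became 476 nt. Among 9 single genes, leaving out 1 library turned the sign for *Zfp148* in the input (to -13.8 and -64.7 nt, range -64.7 to 66.8) and *Zfp804b* (to 0.167 nt, range -1.83 to 0.167). Extending genes by 1000 bp, added after seeing the data, gave differences of 286 nt for *Zfp799*, 956 nt for *Zfp931* and 932 nt for *Zfp652*, and left *Zfp799* alone with MDA5-protected peaks in all editing-deficient and no *Mavs*-/- libraries. Same-numbered libraries of the 2 genotypes did not deviate together (correlations from -0.08 to 0.01), so the numbers do not pair them. With the replicate number as a replicate block, the differences of *Zfp931* (815 nt), *Zfp799* (286 nt) and *Zfp652* (932 nt) kept their size with a sign-flip p of 0.25, the smallest that 3 pairs allow (exact permutation). These genes were picked for having peaks in all libraries of one genotype and none of the other, which fixes this p in advance.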

Other observations

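C2H2 factors that the naming rule does not cover, a list of 27 genes such as *Ctcf*, *Yy1*, *Klf9* and *Zeb1*, were examined beside the Zfp, Zkscan and Zscan genes. Of these, 6 had MDA5-protected peaks (22.2%, background 6.97% of all protein-coding genes), 14 RNase-only peaks (51.9%, background 20.3%) and 19 input peaks (70.4%, background 20.6%). *Klf9*, *Klf12*, *Maz*, *Zbtb16*, *Zbtb20* and *Zeb1* were those with an MDA5-protected peak, and 3 of these 6 had it in all 6 libraries (background 9.03% of genes with such a peak). The list was chosen with earlier results known and its shares were not tested against the family.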
